A study of Arabidopsis thaliana with 12 samples.

Results

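The gibberellin oxidases described here are 10 genes of Arabidopsis thaliana, taken by locus from the 32399 genes of the deposited table. They are 3 GA20OX genes (GA20OX1, GA20OX2 and GA20OX3), 2 GA3OX genes (GA3OX1 and GA3OX2) and 5 GA2OX genes (GA2OX1, GA2OX2, GA2OX4, GA2OX6 and GA2OX8). Gibberellins are plant growth hormones that promote germination and the elongation of hypocotyl, stem and root. GA20OX enzymes carry out the late oxidations that lead to the direct precursors, and GA3OX enzymes turn those precursors into the active hormone. GA2OX enzymes inactivate the hormone or its precursors. The hormone acts through GID1 receptors, which mark the growth-repressing DELLA proteins for destruction, and several of the oxidase genes are themselves under feedback from this signal.

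Their transcripts were measured by RNA sequencing in whole seedlings that were 5 days old, either wild type (WT) or from a line that carries the label rve5-2, an allele name of the Myb-like clock gene RVE5. All seedlings had grown at 22 °C in long days of 16 h light and 8 h dark, then spent 12 h at 22 °C or 29 °C, and were collected at zeitgeber time 12 h, or 12 h after lights on. The 4 groups are WT at 22 °C, WT at 29 °C, rve5-2 at 22 °C and rve5-2 at 29 °C, with 3 libraries each and 12 in all. The study's title names RVE5, its relative CCA1 and hypocotyl growth in the warm as its subject. The libraries labelled rve5-2 had far more RVE5 transcript than WT, with 1011 ± 68.1 against 14.9 ± 0.757 CPM at 22 °C and 1329 ± 85.6 against 15.1 ± 1.66 CPM at 29 °C (SD, n = 3 each). CPM is counts per 1e6 counts after TMM scaling. No direction is therefore read from the allele name, and "the libraries labelled rve5-2" stands for the line throughout. Separate cultures are not stated for the replicates, nor is the number of lines, and the p-values rest on a spread among libraries that may be technical.

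Total counts were 65.9 to 89.1 M per library (M, 1e6). Low counts lie at a spacing of 3.73, so 1 sequenced fragment appears to have added about 4 counts, and the totals would stand for 17.7 to 23.9 M fragments. The seed storage markers were at or near 0, with 3 of 5 at 0 in every library and sums of at most 0.194 CPM. The 4 shoot markers (light-harvesting and Rubisco genes) summed to 26048 to 27780 CPM in WT at 22 °C and 26955 to 35559 CPM at 29 °C, and to 29786 to 32895 and 35339 to 42586 CPM under the rve5-2 label. With temperature 2 of the 4 were called higher and 1 lower in WT, and 2 higher and none lower under the rve5-2 label. The 14 root markers were all detected, and their summed level differed between temperatures: it was 56.9 to 129 CPM in WT at 22 °C and 7.26 to 26.5 CPM in WT at 29 °C. The libraries labelled rve5-2 had sums of 86.2 to 111 CPM at 22 °C and of 11.9 to 24.2 CPM at 29 °C. Within its group, replicate 1 of WT at 29 °C was the lowest in 14 of 14 root markers. In whole seedlings a smaller amount of a tissue and less RNA per cell of that tissue cannot be told apart.

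The positions of the genes in the deposited table (build TAIR10) are as follows. GA20OX1 (AT4G25420) lies on chromosome 4 from 12990884 to 12992458, GA20OX2 (AT5G51810) on chromosome 5 from 21055188 to 21056808, and GA20OX3 (AT5G07200) on chromosome 5 from 2243553 to 2245339. GA3OX1 (AT1G15550) lies on chromosome 1 from 5344478 to 5346166 and GA3OX2 (AT1G80340) on chromosome 1 from 30200693 to 30202200. GA2OX1 (AT1G78440) spans 29511599 to 29513051, GA2OX2 (AT1G30040) 10537648 to 10539831, GA2OX4 (AT1G47990) 17698655 to 17700834 and GA2OX6 (AT1G02400) 486801 to 489577, all on chromosome 1. GA2OX8 (AT4G21200) lies on chromosome 4 from 11302685 to 11306601. In the RefSeq annotation the GA3OX genes have 2 exons and the other members 3. No member overlaps another gene of the table, and 0 of the 50-base exon stretches of any member occurs elsewhere in the nuclear genome, so their counts are not shared with a near-identical copy. GA3OX4, another gibberellin oxidase gene, lies within 3 kb of GA3OX2.

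The 250 bases before the RefSeq gene start (build TAIR10.1) are shown for GA3OX1, GA2OX6 and GA2OX2, since both GA2OX genes were called with temperature and GA3OX1 was the GA3OX gene that was not. Capitals mark a match to a searched motif, and each sequence is written 5′ to 3′ on the strand of its gene.
GA3OX1 (chr1:5346343-5346592, minus strand): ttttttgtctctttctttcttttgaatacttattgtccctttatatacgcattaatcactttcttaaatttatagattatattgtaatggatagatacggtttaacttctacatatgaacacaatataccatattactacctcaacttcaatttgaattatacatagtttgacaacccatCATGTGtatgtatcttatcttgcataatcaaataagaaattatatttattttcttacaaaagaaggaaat
GA2OX6 (chr1:486550-486799, plus strand): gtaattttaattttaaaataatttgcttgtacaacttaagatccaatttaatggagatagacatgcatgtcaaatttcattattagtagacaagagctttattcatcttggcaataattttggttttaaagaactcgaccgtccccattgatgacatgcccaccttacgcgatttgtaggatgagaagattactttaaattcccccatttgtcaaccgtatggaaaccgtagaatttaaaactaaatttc
GA2OX2 (chr1:10537207-10537456, plus strand): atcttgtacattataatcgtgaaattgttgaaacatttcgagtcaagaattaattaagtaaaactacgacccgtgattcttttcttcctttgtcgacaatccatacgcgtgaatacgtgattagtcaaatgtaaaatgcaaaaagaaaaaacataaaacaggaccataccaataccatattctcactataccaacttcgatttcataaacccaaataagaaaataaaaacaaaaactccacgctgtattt

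The motifs AAATATCT (evening element core), AAAAATCT (CCA1 binding site), CACGTG (G-box) and CATGTG (an E-box bound by PIF factors) were searched on both strands in this window of 9 members, and no match overlaps another. Of 27443 promoters of this length, 4.79% hold AAATATCT, 6.69% hold AAAAATCT, 6.49% hold CACGTG and 11.1% hold CATGTG. None of the 9 holds AAATATCT or AAAAATCT in the window. CACGTG stands in 1 of 9, GA2OX4, at 90 bases before the start. CATGTG stands in 2 of 9, in GA3OX1 at 70 bases and in GA20OX2 at 57 and, as CACATG, at 200 bases before the start. The windows of GA2OX6 and GA2OX2 hold none of the 4 motifs. The RefSeq starts lie up to 191 bases upstream of the starts in the table, so the window depends on the annotation.

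Compared per kilobase of transcript, as the deposited FPKM, the 4 genes GA3OX1, GA3OX2, GA2OX2 and GA2OX6 had the highest mean levels of the family in every group. In WT at 22 °C the order of FPKM levels was led by GA3OX2 with 12.3 ± 1.28 FPKM, followed by GA3OX1 with 4.8 ± 0.757 FPKM, and their libraries did not overlap. GA2OX6 with 3.46 ± 0.491 FPKM and GA2OX2 with 2.72 ± 0.689 FPKM came next and overlapped each other. GA2OX4, GA20OX2, GA20OX1, GA2OX8 and GA2OX1 had 0.475 to 0.783 FPKM, each overlapping its neighbour. GA20OX3 was last, with 0.0921 ± 0.11 FPKM.

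The order was different in the warm. In WT at 29 °C GA3OX1 (5.37 ± 1.8 FPKM), GA3OX2 (4.61 ± 2.07 FPKM) and GA2OX2 (4.03 ± 0.575 FPKM) overlapped each other in turn, and GA2OX6 lay below them at 1.73 ± 0.765 FPKM. Where the label was rve5-2, GA3OX2 led at 22 °C with 9.94 ± 2.49 FPKM, above GA2OX6 (4.32 ± 1.62 FPKM) and GA3OX1 (4.32 ± 0.0279 FPKM). At 29 °C GA2OX2 led there with 4.22 ± 0.369 FPKM, and GA3OX1 (3.54 ± 0.744 FPKM), GA3OX2 (2.31 ± 0.849 FPKM) and GA2OX6 (1.54 ± 0.118 FPKM) followed, each overlapping the next. The other 6 members had mean levels under 1 FPKM in every group, and the highest of them was GA20OX1 at 29 °C in the libraries labelled rve5-2 (0.969 ± 0.743 FPKM).

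**Figure D1:**
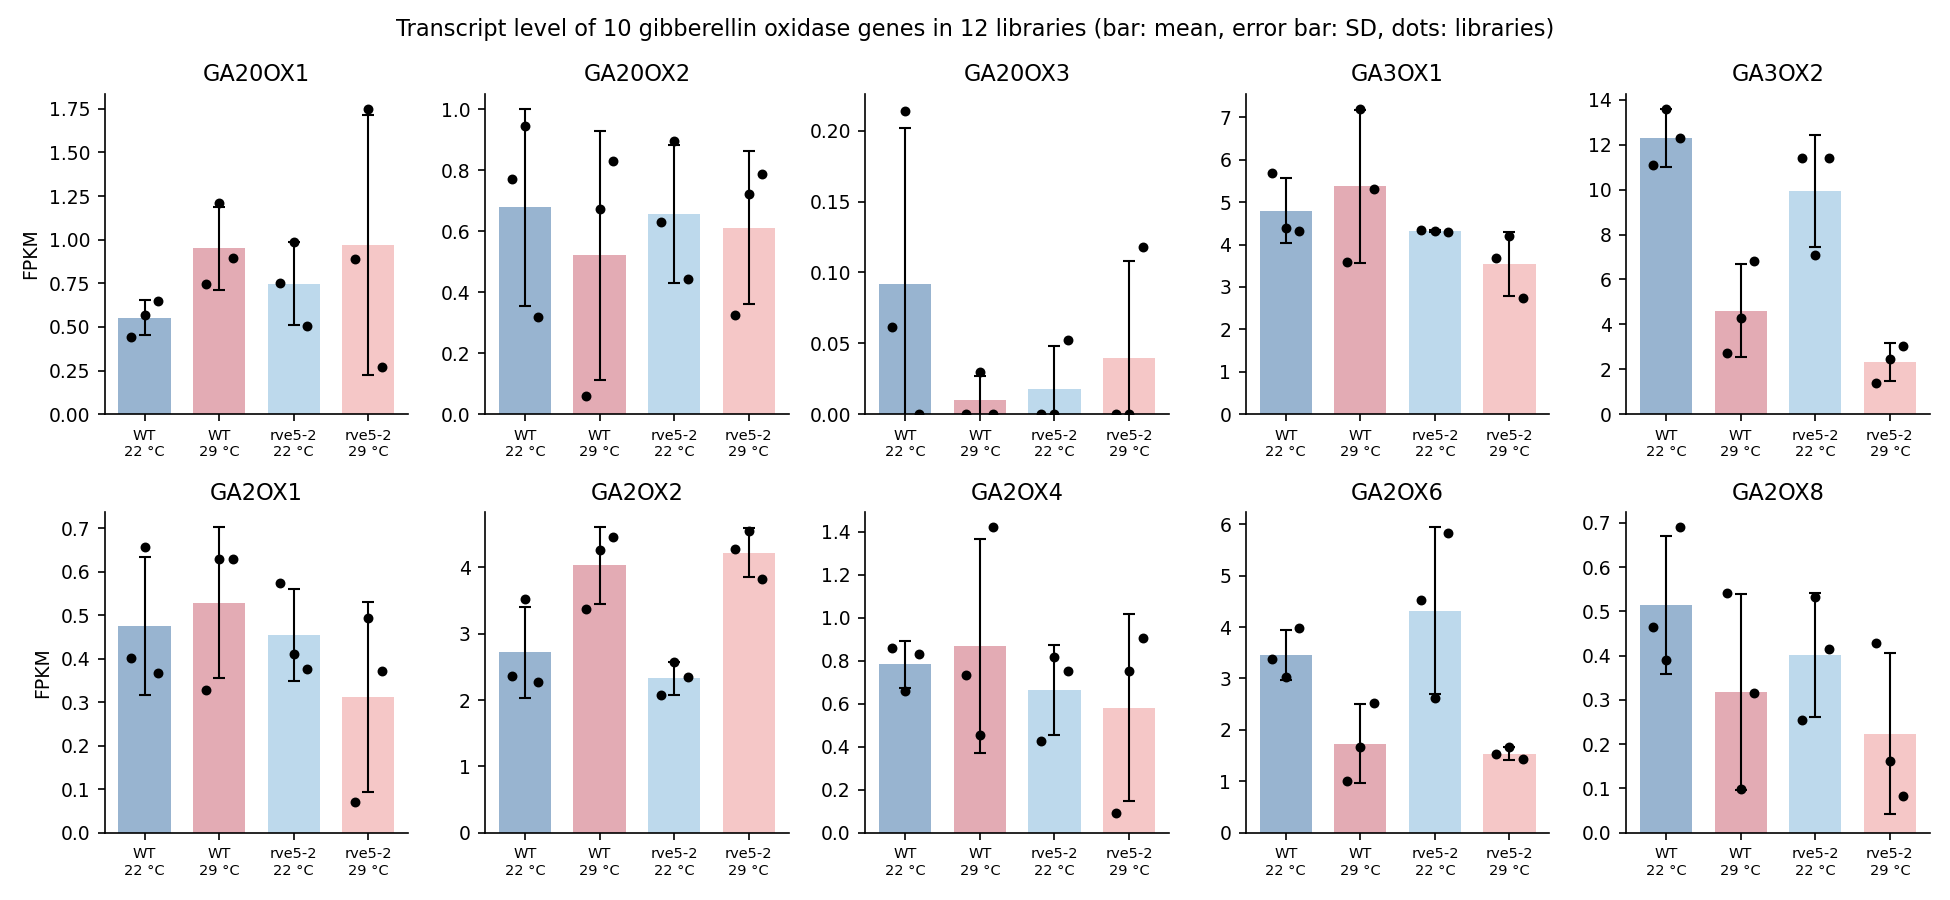
FPKM (y axis, from 0, a separate scale per gene) of the 10 genes in the 4 groups (x axis), with a bar for the mean, an error bar for the SD and a dot for each of the 3 libraries. GA3OX2 falls from 12.3 to 4.61 FPKM in WT and from 9.94 to 2.31 FPKM in the libraries labelled rve5-2, while GA2OX2 rises from 2.72 to 4.03 FPKM and from 2.33 to 4.22 FPKM.

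Summed by role, the transcripts for the last activating step were lower at 29 °C, while those for inactivation had similar sums. The 2 GA3OX genes together had 16.8, 18 and 16.6 FPKM in the 3 WT libraries at 22 °C and 6.31, 11.5 and 12.1 FPKM in those at 29 °C. Sums in the libraries labelled rve5-2 were 15.7, 11.4 and 15.7 FPKM at 22 °C and 5.07, 6.69 and 5.79 FPKM at 29 °C. Within each genotype all 3 warm libraries lay below all 3 at 22 °C. The 5 GA2OX genes together had 7.95 ± 0.426 and 7.47 ± 1.71 FPKM in WT at 22 and 29 °C, and 8.17 ± 1.42 and 6.88 ± 0.651 FPKM in the libraries labelled rve5-2, with overlapping libraries. The 3 GA20OX genes had 1.32 ± 0.382 and 1.48 ± 0.595 FPKM in WT and 1.42 ± 0.439 and 1.62 ± 0.736 FPKM in the libraries labelled rve5-2. As a share of the sum over all 10 genes, GA3OX took 64.9 ± 0.729% in WT at 22 °C and 52.2 ± 3.95% at 29 °C. The share in the libraries labelled rve5-2 was 59.6 ± 3.34% at 22 °C and 40.8 ± 1.58% at 29 °C. These sums were described and not tested, and they follow mostly from GA3OX2, the most abundant member at 22 °C.

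**Figure D2:**
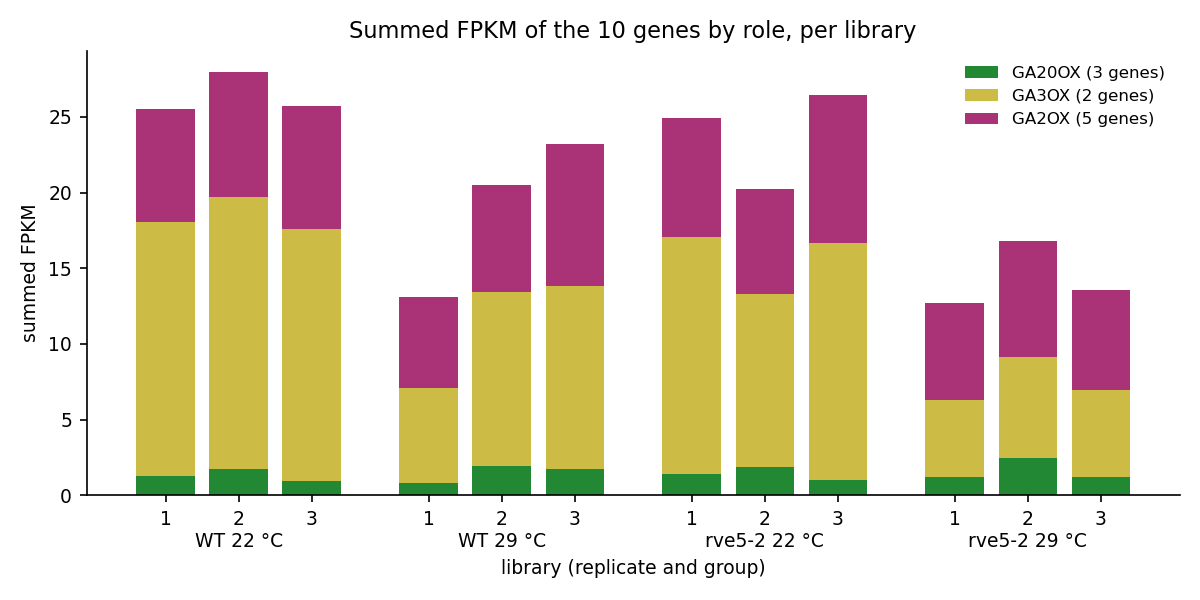
Summed FPKM (y axis, from 0) of the 3 GA20OX, 2 GA3OX and 5 GA2OX genes, stacked, in each of the 12 libraries (x axis, replicate number and group). The GA3OX part shrinks from a mean of 17.1 to 9.97 FPKM in WT and from 14.3 to 5.85 FPKM in the libraries labelled rve5-2, while the GA2OX part stays between 5.98 and 9.73 FPKM.

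Warmth was first compared within WT, 29 °C against 22 °C, with edgeR's quasi-likelihood test over 21870 genes and Benjamini-Hochberg adjustment. The threshold for a call was an adjusted p of 0.05. Of the 10 members 9 passed the filter on low counts. GA3OX2 fell by 1.39 on the log2 scale and GA2OX2 rose by 0.61, so that 1 member rose and 1 fell. Among all genes tested 8.08% rose and 7.41% fell, 15.5% in all. The median log2 fold change was 0.18 over the 9 members and 0.002 over all genes, and 5 of the 9 were above 0. The same comparison in the libraries labelled rve5-2 called 3 members: GA3OX2 and GA2OX6 fell by 2.02 and 1.38, and GA2OX2 rose by 0.96 on the log2 scale. There 13% of all genes rose and 13% fell, 26% in all, and the medians were -0.18 over the members and -0.005 over all genes. The members called, 2 and 3 of 9, lie near these shares, and nothing particular to the family is read from their number.

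Among the GA20OX genes, which supply the precursors, none was called in either comparison. GA20OX1, the family member that limits stem growth in the ga5 dwarf, had 0.581, 0.702 and 0.829 CPM in WT at 22 °C and 1.03, 1.54 and 1.13 CPM in WT at 29 °C. All 3 warm WT libraries lay above all 3 at 22 °C, but the level rested on counts of only 44, 56 and 70 at 22 °C, and the log2 fold change of 0.81 (SE 0.551, 95% interval -0.39 to 2.0) had an adjusted p of 0.344 in edgeR's quasi-likelihood test. The libraries labelled rve5-2 had 0.992, 1.29 and 0.65 CPM at 22 °C and 1.27, 2.44 and 0.382 CPM at 29 °C, a wide spread in which the groups overlapped (log2 fold change 0.48, SE 0.547). GA20OX2, which acts with GA20OX1 in elongation and flowering, had 1.08, 1.27 and 0.45 CPM in WT at 22 °C and 0.0951, 0.936 and 1.15 CPM at 29 °C. Its lowest value came from replicate 1 of WT at 29 °C, the library with the lowest root markers. Its means in the libraries labelled rve5-2 were 0.938 ± 0.325 and 0.936 ± 0.365 CPM. GA20OX3 did not pass the filter. Its counts were 8, 27 and 0 in WT at 22 °C and 0, 4 and 0 in WT at 29 °C. For the rve5-2 label they were 0, 0 and 8 at 22 °C and 0, 0 and 15 at 29 °C. A floor of 3 fragments is 11.19 counts per library, so 2 of the 12 libraries lay above it and no difference was detectable at this depth.

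The GA3OX genes, which make the active hormone, moved unequally. GA3OX2 had 12, 14.1 and 13.2 CPM in WT at 22 °C and 3.17, 4.58 and 7.24 CPM in WT at 29 °C. All 3 warm libraries lay below all 3 at 22 °C, and replicate 1 was the lowest. The fall was 2.62-fold between the means (log2 fold change -1.39, SE 0.313, 95% interval -2.07 to -0.71, adjusted p = 0.012 in edgeR's quasi-likelihood test). GA3OX2 in the libraries labelled rve5-2 had 12.6, 7.75 and 12.3 CPM at 22 °C and 1.65, 2.92 and 3.52 CPM at 29 °C. The groups did not overlap, with replicate 2 the lowest at 22 °C, and the fall was 4.04-fold between the means (log2 fold change -2.02, SE 0.323, 95% interval -2.72 to -1.32, edgeR adjusted p = 0.00112). GA3OX1 is the GA4 locus, whose loss gives a semi-dwarf plant. It had 7.13, 5.29 and 5.41 CPM in WT at 22 °C and 4.9, 8.9 and 6.53 CPM at 29 °C, with overlapping groups. Its log2 fold change in WT was 0.19 with a 95% interval of -0.30 to 0.68. GA3OX1 in the libraries labelled rve5-2 had 5.6, 5.48 and 5.4 CPM at 22 °C and 5.12, 5.72 and 3.67 CPM at 29 °C, and the log2 fold change was -0.18 (-0.68 to 0.31). Both intervals leave out a fall as large as the point estimate of GA3OX2 in the same genotype.

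Within a library the FPKM ratio of GA3OX2 to GA3OX1 was 1.95, 3.1 and 2.83 in WT at 22 °C and 0.753, 0.597 and 1.28 at 29 °C. Ratios for the rve5-2 label were 2.61, 1.64 and 2.65 at 22 °C and 0.375, 0.591 and 1.12 at 29 °C. GA3OX2 thus had the higher level of the pair in all 6 libraries at 22 °C, and in 1 of 3 libraries of each genotype at 29 °C. This ratio was chosen after its values were seen and was not tested.

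Of the GA2OX genes, which inactivate gibberellins, GA2OX2 rose and GA2OX6 was lower at 29 °C. GA2OX2 had 4.43, 6.3 and 4.24 CPM in WT at 22 °C and 6.83, 7.81 and 8.17 CPM at 29 °C, without overlap. The rise was 1.52-fold between the means (log2 fold change 0.61, SE 0.173, 95% interval 0.23 to 0.98, adjusted p = 0.0333 in edgeR's quasi-likelihood test). This call was the least stable of the 5: it ended without replicate 1 or 3 of WT at 22 °C (adjusted p = 0.109 and 0.125), without replicate 2 or 3 of WT at 29 °C (0.0784 and 0.077), in a fit to the WT libraries alone (0.0974) and in limma on log2 FPKM. In the libraries labelled rve5-2 GA2OX2 had 3.95, 4.87 and 4.39 CPM at 22 °C and 8.84, 9.2 and 7.59 CPM at 29 °C. There the rise was 1.94-fold (log2 fold change 0.96, SE 0.174, 95% interval 0.58 to 1.33, edgeR adjusted p = 0.00232), and the call held without each of the 12 libraries in turn.

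GA2OX6 had 4.51, 3.88 and 5.31 CPM in WT at 22 °C and 1.46, 2.18 and 3.32 CPM at 29 °C. The libraries did not overlap, but the log2 fold change of -0.97 (SE 0.319, 95% interval -1.67 to -0.28) missed the threshold in edgeR's quasi-likelihood test, with an adjusted p of 0.0578. It passed in DESeq2 (adjusted p = 0.0223) and in edgeR with a replicate block (adjusted p = 0.0384). With 1 library left out in edgeR, it passed in 2 of 12 fits. Without replicate 3 of WT at 29 °C the log2 fold change was -1.32 (edgeR adjusted p = 0.019). Without replicate 1 of that group it was -0.73 (edgeR adjusted p = 0.152). GA2OX6 in the libraries labelled rve5-2 had 6.19, 3.56 and 7.81 CPM at 22 °C and 2.28, 2.42 and 2.04 CPM at 29 °C. All warm libraries lay below those at 22 °C, which were spread widely, and the fall was 2.61-fold (log2 fold change -1.38, SE 0.322, 95% interval -2.08 to -0.68, edgeR adjusted p = 0.00883).

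GA2OX2 and GA2OX6 belong to the same role and moved in opposite directions in the libraries labelled rve5-2. Their FPKM ratio within a library, GA2OX2 over GA2OX6, was 0.704, 1.17 and 0.572 in WT at 22 °C and 3.37, 2.57 and 1.77 at 29 °C. The libraries labelled rve5-2 had ratios of 0.458, 0.98 and 0.403 at 22 °C and of 2.8, 2.73 and 2.67 at 29 °C. All 6 libraries at 29 °C had a higher ratio than all 6 at 22 °C. This ratio too was chosen after its values were seen and was not tested.

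The other 3 GA2OX genes were low and not called. GA2OX1 had means of 0.576 ± 0.176 and 0.654 ± 0.185 CPM in WT at 22 and 29 °C and 0.567 ± 0.134 and 0.417 ± 0.284 CPM in the libraries labelled rve5-2. GA2OX4 had 0.75 ± 0.118 and 0.853 ± 0.461 CPM in WT and 0.652 ± 0.204 and 0.61 ± 0.445 CPM in the libraries labelled rve5-2. GA2OX8, which acts on the larger precursors rather than on the active hormone, had 0.604 ± 0.182 and 0.402 ± 0.289 CPM in WT and 0.481 ± 0.163 and 0.291 ± 0.235 CPM in the libraries labelled rve5-2. The SEs of their log2 fold changes with temperature were 0.631 to 0.764, so changes of the size seen for GA2OX2 could not be resolved in them.

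**Figure D3:**
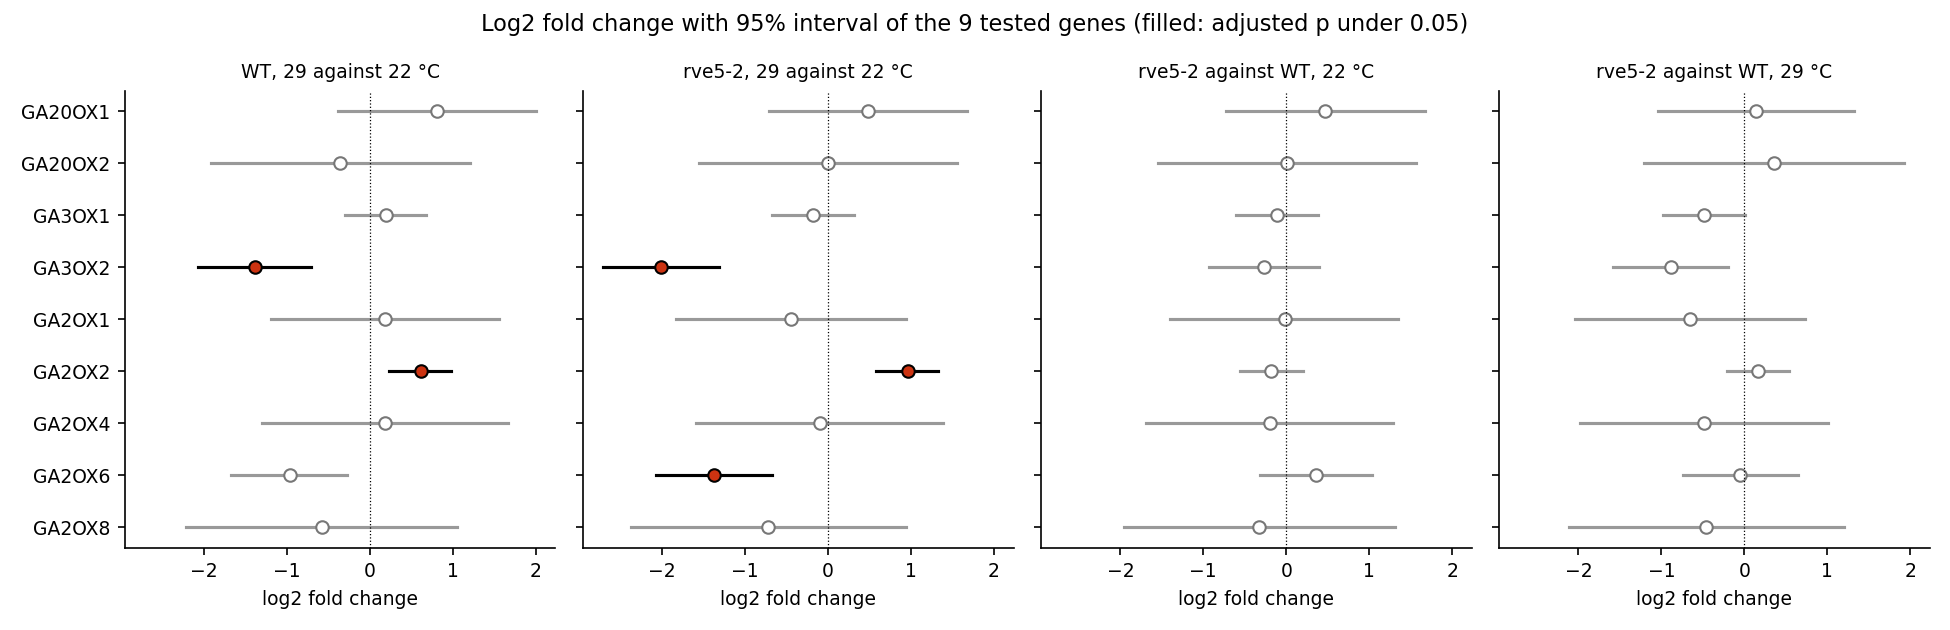
Log2 fold change (x axis) with its 95% interval from edgeR's quasi-likelihood test for the 9 tested genes (y axis) in 4 comparisons, filled where the adjusted p was under 0.05. The 5 filled points are GA3OX2 (-1.39 and -2.02) and GA2OX2 (0.61 and 0.96) in both genotypes and GA2OX6 (-1.38) in the libraries labelled rve5-2, and no point is filled in the genotype comparisons.

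The fall of GA3OX2 and GA2OX6 and the rise of GA2OX2 came with lower levels of most root markers. The root score is the mean log2 CPM over the 14 markers. Its values were 2.12, 1.73 and 2.57 in WT at 22 °C and -1.33, 0.48 and 0.65 at 29 °C. Values of 2.29, 2.07 and 2.39 were found for the rve5-2 label at 22 °C and of -0.64, -0.58 and 0.49 at 29 °C. The scores of the 2 temperatures did not overlap. Called lower were 9 of 14 root markers in each genotype, beside 7.41% and 13% of all genes. All 14 had a log2 fold change below 0 in WT, and 13 of 14 in the libraries labelled rve5-2. The markers did not move alike there: LRX1 had a log2 fold change of -4.02, PLT1 of -0.33 and WOX5 of 0.02. PLT1 and WOX5 were not called, and their groups overlapped. With the root score as a covariate in edgeR none of the 5 calls remained. GA3OX2 then had log2 fold changes of -0.41 in WT (adjusted p = 0.746) and -0.85 in the libraries labelled rve5-2 (adjusted p = 0.408), and GA2OX6 had -0.12 (adjusted p = 0.954) and -0.33 (adjusted p = 0.837). GA2OX2 had 0.51 (adjusted p = 0.545) and 0.84 (adjusted p = 0.281). Its SEs were 0.294 in WT and 0.339 in the libraries labelled rve5-2, against 0.173 and 0.174 without the covariate. Since the scores of the temperatures did not overlap, this fit separates root score from temperature poorly for all of these genes. In that fit the calls over all genes fell from 3387 to 68 in WT and from 5696 to 172 in the libraries labelled rve5-2. A response to temperature and the lower level of most root markers cannot be told apart for these genes in whole seedlings. Without replicate 1 of WT at 29 °C, where the root score was lowest, GA3OX2 had a log2 fold change of -1.15 in WT (edgeR adjusted p = 0.0272). GA2OX2 had 0.68 (edgeR adjusted p = 0.0359), and both remained called. GA2OX6, not called in WT with all libraries, had -0.73 (edgeR adjusted p = 0.152). The warm WT libraries left, with scores of 0.48 and 0.65, still lay below every library at 22 °C. Leaving out replicate 1 thus does not separate root score from temperature.

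**Figure D4:**
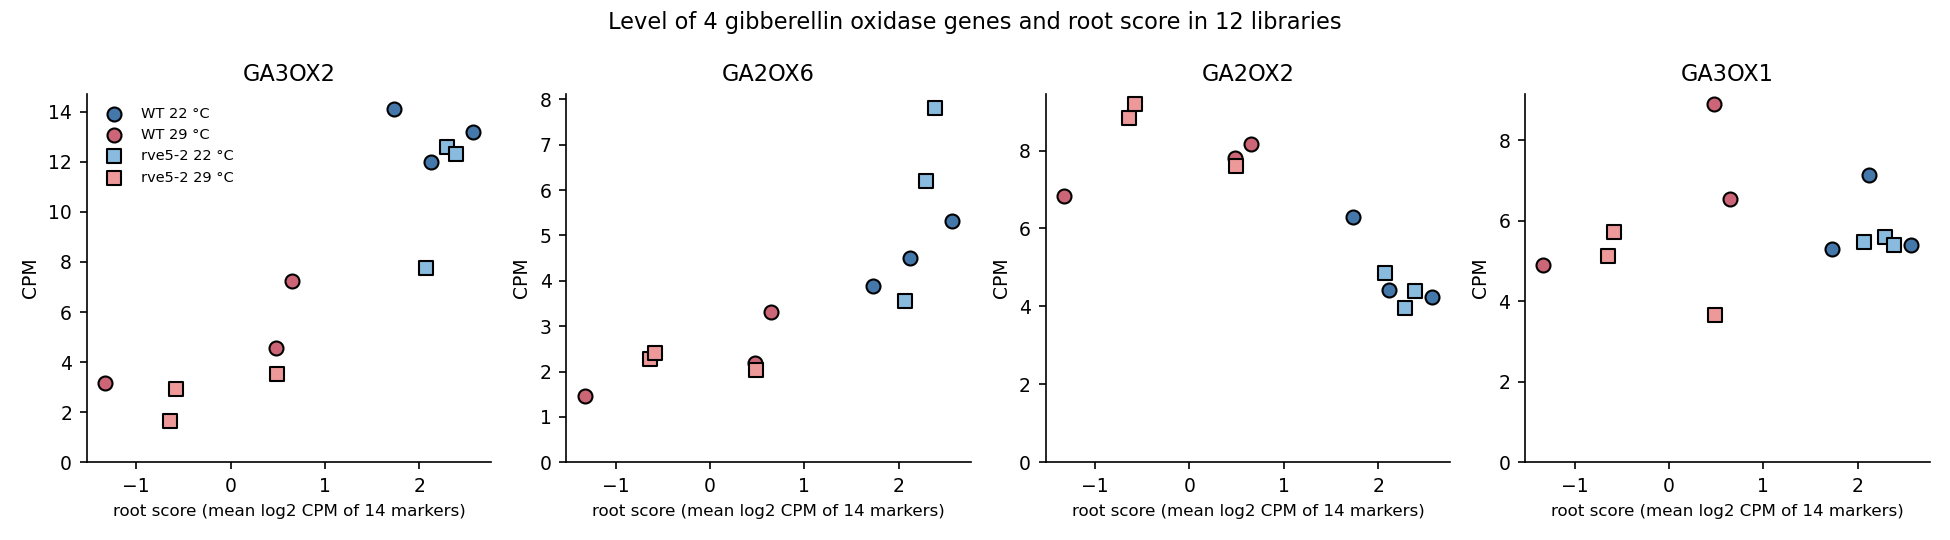
Level in CPM (y axis, from 0) of GA3OX2, GA2OX6, GA2OX2 and GA3OX1 against the root score (x axis, mean log2 CPM of 14 root markers) in the 12 libraries, circles for WT and squares for the libraries labelled rve5-2, blue for 22 °C and red for 29 °C. The libraries at 22 °C lie at scores of 1.73 to 2.57 and those at 29 °C at -1.33 to 0.65, and GA3OX2 and GA2OX6 are low, GA2OX2 high, where the score is low.

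The genotypes were then compared at each temperature. None of the 9 tested members was called at 22 °C in edgeR's quasi-likelihood test, where 0.192% of all genes were called (0.137% higher and 0.0549% lower in the libraries labelled rve5-2). There 0 of 9 members had an unadjusted p under 0.05, beside 1397 of all 21870 genes tested. GA3OX2 had 13.1 ± 1.07 CPM in WT against 10.9 ± 2.72 CPM, a log2 fold change of -0.27 with a 95% interval of -0.93 to 0.40. For GA2OX2 the interval was -0.56 to 0.20, for GA3OX1 -0.61 to 0.38 and for GA2OX6 -0.32 to 1.04. At 29 °C again 0 of 9 members were called, against 0.466% of all genes (0.32% higher and 0.146% lower). An unadjusted p under 0.05 was found for 1838 of all 21870 genes tested, and for 1 of 9 members. That member was GA3OX2, with a mean of 5 ± 2.06 CPM in WT and of 2.7 ± 0.95 CPM under the rve5-2 label. DESeq2 called 0 members at either temperature. For GA3OX2 the groups overlapped, since the lowest WT library had 3.17 CPM and the highest library labelled rve5-2 had 3.52 CPM. The log2 fold change of -0.89 (SE 0.317, 95% interval -1.58 to -0.20) had an adjusted p of 0.394 in edgeR, and over all alternatives tried the adjusted p ran from 0.0642 to 0.812. The lowest of these came without replicate 1 of WT at 29 °C (log2 fold change -1.13). GA3OX1 had 6.78 ± 2.01 and 4.84 ± 1.06 CPM in WT and the libraries labelled rve5-2 at 29 °C, a log2 fold change of -0.49 (95% interval -0.98 to 0.01, edgeR adjusted p = 0.609). The root markers gave 0 calls in either genotype comparison, while 3 of the 4 shoot markers were called higher in the libraries labelled rve5-2 at both temperatures. Those 3 were light-harvesting genes. The Rubisco gene RBCS1A had 23928 ± 876 CPM in WT and 25091 ± 951 CPM under the rve5-2 label at 22 °C. Its libraries overlapped between genotypes at both temperatures, so the shoot markers did not differ alike.

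The warm responses of the genotypes were compared by their interaction, the response in the libraries labelled rve5-2 minus that in WT. No member was called and 0 of 9 had an unadjusted p under 0.05 in edgeR. Over all genes 0% were called there, with 1070 genes at an unadjusted p under 0.05, while DESeq2 called 43 genes and 0 members. The difference was -0.62 for GA3OX2 (SE 0.439, 95% interval -1.58 to 0.33), 0.35 for GA2OX2 (-0.18 to 0.88) and -0.41 for GA2OX6 (-1.38 to 0.57) on the log2 scale. The call of GA2OX6 in the libraries labelled rve5-2 and its absence in WT are therefore not shown to differ, and the intervals are too wide to call the responses alike.

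The rest of the pathway was read from lists of related genes. Most root markers were lower at 29 °C in these comparisons too and some shoot markers were higher, and their part in the values that follow was not tested. The all-gene shares to read each count against are those given above, 8.08% higher and 7.41% lower in WT and 13% each way in the libraries labelled rve5-2. With lists this short, a count of 1 lies near them. Calls of the listed genes come from the main edgeR fit, and their stability over the alternatives was not examined. Of 6 other gibberellin oxidase genes (GA20OX4, GA20OX5, GA3OX3, GA3OX4, GA2OX3 and GA2OX7) none passed the filter on low counts. GA3OX3 was at 0 in every library, and the highest count of the others was 15, for GA2OX7 in replicate 1 of the libraries labelled rve5-2 at 22 °C.

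Of 5 early synthesis genes 1 was called in WT, against 8.08% of all genes called higher, and none in the libraries labelled rve5-2, against 13%. It was KAO2, an ent-kaurenoic acid oxidase upstream of the GA20OX step, with 24, 24.2 and 23.1 CPM at 22 °C and 29.5, 29.1 and 29.1 CPM at 29 °C (log2 fold change 0.30, SE 0.0934, edgeR adjusted p = 0.0498). The KAO2 interaction of -0.15 (95% interval -0.43 to 0.14, edgeR adjusted p = 0.992) does not show the genotypes to differ. Of 4 genes of other inactivation routes 3 were tested and none was called, and their log2 fold changes in WT were -1.72 for ELA1, -0.73 for ELA2 and -0.72 for GAMT2. Under the rve5-2 label they were -2.13, 0.29 and -1.9, the last with an SE of 1.43 from counts of 54, 4 and 15 at 22 °C and 15, 0 and 4 at 29 °C. GAMT1, another gibberellin methyltransferase gene, was at 0 in every library.

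Of 11 receptor and signalling genes 1 rose in each genotype and none fell, a count near the all-gene shares of 8.08% and 13% called higher. It was RGL2, a DELLA repressor known for its part in germination, with 7.96, 6.99 and 7.82 CPM in WT at 22 °C and 11.8, 9.56 and 10.7 CPM at 29 °C (log2 fold change 0.50, SE 0.144, edgeR adjusted p = 0.0357). RGL2 in the libraries labelled rve5-2 had 5.27, 6.15 and 7.21 CPM at 22 °C and 11.3, 10.2 and 12.9 CPM at 29 °C, a log2 fold change of 0.89 (SE 0.145, edgeR adjusted p = 0.00125). The warm libraries lay above those at 22 °C in both genotypes.

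Of 13 factors known to regulate gibberellin oxidase genes, 4 rose in WT and none fell, beside 8.08% and 7.41% of all genes. The growth-promoting PIF5 went from 12.4 ± 1.31 to 31.6 ± 6.25 CPM and SPT, a repressor of GA3OX genes in seeds, from 7.18 ± 1.2 to 11.1 ± 1.29 CPM, and PIF1 and PIF4 were the others. Under the rve5-2 label 3 rose and none fell, beside 13% of all genes each way. They were PIF4, PIF5 (22.9 ± 4.72 to 56.8 ± 9.34 CPM) and AGL15, a MADS factor that activates GA2OX6 in embryos, from 3.74 ± 1.22 to 7.12 ± 0.343 CPM (log2 fold change 0.93, edgeR adjusted p = 0.0158). The AGL15 interaction was 0.65 (95% interval -0.10 to 1.39) and was not called. PIF4 was also higher in the libraries labelled rve5-2 than in WT at 22 °C (log2 fold change 0.98, edgeR adjusted p = 0.0098) and at 29 °C (0.79, edgeR adjusted p = 0.0228). It was the only one of the 13 called between genotypes, beside 0.137% and 0.32% of all genes called higher. PIF5 was not called, with a log2 fold change of 0.88 at 22 °C (edgeR adjusted p = 0.125). Yet its libraries did not overlap between genotypes at 22 °C, nor at 29 °C (24.4 to 35.4 CPM in WT, 51.4 to 67.6 CPM under the rve5-2 label). PIF4 is thus not shown to be alone in differing by genotype.

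Of 4 GASA genes, which encode small peptides and include gibberellin-responsive members, 2 rose in WT and 1 in the libraries labelled rve5-2, beside 8.08% and 13% of all genes called higher. GASA1 had 116, 93.7 and 89.9 CPM in WT at 22 °C and 188, 288 and 195 CPM at 29 °C (log2 fold change 1.16, edgeR adjusted p = 0.00232). The libraries labelled rve5-2 had 132, 129 and 138 CPM at 22 °C and 345, 278 and 213 CPM at 29 °C (log2 fold change 1.07, edgeR adjusted p = 0.00173). Its libraries did not overlap between temperatures in either genotype. GASA14 rose in WT from 174 ± 18.7 to 241 ± 20.9 CPM (log2 fold change 0.47, edgeR adjusted p = 0.0288) and had 219 ± 46.1 and 180 ± 2.22 CPM in the libraries labelled rve5-2. The GASA14 interaction of -0.75 (95% interval -1.14 to -0.36) was not called, with an edgeR adjusted p of 0.654.

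The genes most like each called member were found by Pearson's r of log2 CPM over the 12 libraries, among 18768 genes. Closest to GA3OX2 were AT2G21620 (RD2 in RefSeq, r = 0.984), AT1G72700 (r = 0.984) and ADT5 (AT5G22630, an arogenate dehydratase of phenylalanine synthesis, r = 0.982). Closest to GA2OX6 were AT4G18930 (r = 0.977), AT5G17380 (r = 0.967) and TPS10 (AT1G60140, r = 0.964). Closest to GA2OX2 were AT2G46610 (RS31a in RefSeq, r = 0.985), AT5G64650 (r = 0.974) and AT4G10330 (r = 0.972). These are descriptions of the same 12 libraries, which share their temperature difference, and no p is attached to them.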

How the data were processed

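RNA from whole seedlings was taken with Trizol and made into TruSeq libraries, a kit that does not mark strand, per the labels' protocols. The deposited table holds a count and an FPKM value (fragments per kilobase per 1e6, as computed by the authors) per gene and library, per the file headers, and genes with a count of 0 hold an FPKM of 0.0001. The submitters' processing notes name cutadapt 1.9, HISAT2 2.0.4, StringTie 1.3.4d, edgeR and the build TAIR10. Which tool made which column, and whether the counts are raw, is not given in the sources used here. The spacing of 3.73 between low counts would make counting error larger than the counts alone imply, and the floor covers counting error only. The treatment text shared by all samples names 29 °C throughout, so temperature was taken from each library's own label.

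The count test was edgeR 4.0.16 in R 4.3.3 (filterByExpr, minimum count 10, 21870 genes tested; TMM; a quasi-likelihood fit with 1 mean per group on all 12 libraries). Adjusted p is Benjamini-Hochberg, over the whole set of tested genes. SE is the size of the log2 fold change divided by the root of F. The 95% intervals use the test's total degrees of freedom (residual plus prior, median 12.35). Alternatives were DESeq2 1.42.0, median-of-ratios scaling, other filters, counts divided by the spacing, limma 3.58.1 on log2 FPKM with pseudocounts 0.1, 0.5 and 1, a fit to the compared groups alone, a replicate block, the root score as covariate, and leaving out each library. The fit was also run on simulated counts with a common dispersion and no spacing of low counts. That run does not measure error rates in these data. The members and lists were chosen with earlier results of these data known. Named by rule were all members, RVE5, up to 3 called genes per list and comparison by smallest adjusted p, and the 3 genes most correlated with each called member (mean CPM of at least 1). Some genes were named outside this rule. They include all 4 regulators called in WT, uncalled genes such as ELA1, ELA2 and GAMT2, genes at or near 0, and single root and shoot markers. Upstream sequence came from RefSeq by locus (build TAIR10.1) for 9 members, and that of the other member is not reported here. Protein sequence was not used here.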

Additional observations from a re-analysis of the deposited data

How the results depend on the processing

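In WT the 2 members called in the warm comparison became 1 in limma on log2(FPKM + 0.1), log2(FPKM + 0.5) and log2(FPKM + 1) and with only the compared groups in the fit, 0 with the root score covariate, and 1 to 3 without each library in turn. The lost call was GA2OX2 (called in 14 of 24 alternatives, adjusted p 0.00999 to 0.545). GA2OX6 gained a call in 5 of 24. In the libraries labelled rve5-2 the 3 called members became 0 with the root score covariate, and GA3OX2, GA2OX2 and GA2OX6 were called in the other 23 of 24 alternatives each, as was GA3OX2 in WT. Over the members, comparisons and alternatives, 106 of 120 values of called results stayed called and 14 did not, 921 of uncalled results stayed uncalled and 5 gained a call. No called value changed sign, and the signs of uncalled values were not compared. Replicate numbers were not taken to pair libraries, because only 3 of 18 pairs with the same number had deviations correlated above 0.1 (range -0.025 to 0.21). Yet 10 of 12 libraries correlated best with a library of their own number, so a weak pairing by number may exist. With a replicate block GA2OX6 was called lower in WT (-1.0, adjusted p = 0.0384), giving 3 called members, and no other member call changed.

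Over all genes the counts called in WT (3387) were 1687 with only the compared groups, 68 with the root score and 1747 to 2249 without 1 library of WT at 22 °C. In the libraries labelled rve5-2 they were 5696, 172 with the root score and 3590 or 3612 without replicate 2 or 1 at 29 °C. Between genotypes they were 42 at 22 °C (DESeq2 145, compared groups 75, root score 69, 25 to 82 with a library left out) and 102 at 29 °C (351, 38, 160, and 52 to 558). In limma on log2(FPKM + 1) 1469 genes rose and 2110 fell in WT, against 1767 and 1620 in edgeR, and 1949 and 3923 against 2848 each in the libraries labelled rve5-2. The FPKM fits shifted the median log2 fold change of all genes by -0.097 to -0.031 from that in edgeR. Members under 1 FPKM rested on few fragments, which limits what could be detected in them.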
